A study of Homo sapiens with 26 samples.

Results

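Chromosome 2 was described from 2362 bins of 100 kb, which are 8.97% of the 26331 bins used over the whole genome. The bins were chosen by position alone: every chromosome 2 bin that had a value and was above 0 in at least 1 cell. Of the 2432 bins that cover the chromosome in the human genome build hg19, 52 had no value and 18 were 0 in every cell. At the edge of that rule, 8 bins were above 0 in exactly 1 cell, with ratios from 3.96 to 24.6 in that cell. The short (p) arm held 899 of the bins that were used and the long (q) arm held 1463.

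The study profiled single cells by DamID. Dam is a bacterial enzyme that methylates adenine in GATC, and the methylated fragments are cut out with DpnI, amplified and sequenced. All 26 cells were of 1 group: clone 5-8 of KBM7, a human leukaemia line with a near-haploid genome, labelled haploid (1N) and DamOnly, that is the enzyme with no fusion partner. Each cell had 0.5 nM Shield1, the ligand that stabilises the enzyme, for 15 h. It was sorted by small size (the smallest 2%) and by expression of both Fucci cell cycle markers. With 1 clone, 1 group and no untreated cells, cells are not replicate cultures, so differences are given as a spread over cells, with no p-value.

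Unfused Dam marks DNA according to how easily the enzyme reaches it, so open and gene-rich chromatin is commonly marked more than compact chromatin. Giemsa staining divides chromosomes into light bands, which are rich in genes and replicate early, and dark bands, which are poor in genes, replicate late and often lie at the nuclear lamina. Human chromosome 2 arose by the end-to-end joining of a pair of ancestral chromosomes that remain separate in the other great apes. The joint lies at the border of bands 2q13 and 2q14.1, and the centromere that fell silent afterwards is commonly placed near 2q21.

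The deposited value of a bin in a cell is a ratio of observed to expected methylation. In what follows, the level of a region in a cell is its mean ratio divided by that of the other autosomes in that cell. A level of 1 is thus the mean of those autosomes, called the rest of the genome below. Chromosomes 9 and 22 enter as 9:22 and 22:9, chromosome X was left out and chromosome 8 had no used bins. A region is said to lie above or below 1 when at least 21 of 26 cells do so. Whole counts recovered from the ratios numbered 1498 to 17227 per cell on chromosome 2, with a median of 3484.5, and 127256 in all. The shallowest cell therefore had 0.634 counts per bin and the deepest 7.29, so bins are described over cells and single cells are described over bands. The 6 cells with the smallest share of bins above 0, called the cells of lowest coverage, were cells 10, 13, 21, 22, 23 and 26.

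Cell 22 stood apart from the other 25 before any region was compared. Its bin profile on chromosome 2 had a mean Spearman correlation of 0.0277 with the other cells, against 0.231 ± 0.0603 (SD, n = 26 cells) over all cells and 0.328 in cell 1, the highest. Cell 22 was also the least similar cell on chromosome 1, at 0.0296, and on chromosome 3, at 0.0156. On chromosome 2 it held the highest or the lowest value of all cells in 37 of 48 windows of 5 Mb. Where leaving it out moved a value by over 1.5 times, the value without it is given beside the first.

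As a whole, chromosome 2 was marked less than the rest of the genome. Its level ran from 0.664 in cell 3 through a median of 0.920 to 1.22 in cell 18, and the mean was 0.897 ± 0.119 (SD, n = 26 cells). The level was below 1 in 23 cells, and only cells 1, 18 and 23 were above. Among 21 autosomes with used bins, 9:22 and 22:9 included, the chromosome had a median rank of 14.5 from the top. Its rank ran from 4 in cell 18 to 19 in cell 10. Cell 22 was not unusual in this total, with a level of 0.954.

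Of the chromosomes nearest to it in size, only chromosome 1 was separated from it. Chromosome 1 was higher in 24 of 26 cells, and the log2 ratio of chromosome 2 to chromosome 1 was -0.35 ± 0.24 (SD, n = 26 cells). Chromosome 3 was higher in 13 cells and lower in 13, with a log2 ratio of chromosome 2 to chromosome 3 of -0.02 ± 0.23. The difference from chromosome 3 was thus smaller than the spread between cells. For background, RefSeq lists 2062 protein-coding genes on chromosome 1, 1254 on chromosome 2 and 1066 on chromosome 3, beside 2229, 2362 and 1949 bins used here.

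The short arm was marked more than the long arm. Levels of the p arm ran from 0.621 in cell 10 through a median of 0.950 to 1.13 in cell 16, with a mean of 0.946 ± 0.137 (SD, n = 26 cells). The q arm ran from 0.653 in cell 26 through a median of 0.865 to 1.30 in cell 18, with a mean of 0.866 ± 0.135. The arms overlapped widely between cells, but within a cell the p arm was higher in 22 of 26, with a log2 ratio of 0.13 ± 0.21. Cell 22 had the lowest ratio, -0.58. Split by stain, light bands of the p arm had a level of 1.21 ± 0.210 against 1.05 ± 0.156 on the q arm and were higher in 21 cells. Dark bands had 0.707 ± 0.110 on the short arm and 0.697 ± 0.149 on the long arm, and the p arm was higher in 17 cells, which places them on neither side.

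The clearest division of the chromosome followed the Giemsa bands. Light bands, together 1119 bins, had levels from 0.769 in cell 3 through a median of 1.10 to 1.47 in cell 18, with a mean of 1.11 ± 0.158 (SD, n = 26 cells). Dark bands, together 1224 bins, had levels from 0.459 in cell 10 through a median of 0.692 to 0.968 in cell 18, with a mean of 0.701 ± 0.113. Dark bands were below the rest of the genome in every cell and light bands were above it in 20 of 26.

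Within each cell the light bands were the higher of the pair. The log2 ratio of light to dark bands was 0.66 ± 0.21 (SD, n = 26 cells) and above 0 in all 26 cells. It ran from 0.05 in cell 22 to 1.08 in cell 23, and without cell 22 the lowest cell was cell 21 at 0.46. The division held on both arms, with a log2 ratio of 0.76 ± 0.24 on the p arm in 26 of 26 cells and 0.60 ± 0.23 on the q arm in 25 of 26. The exception was cell 22, in which the dark bands of the q arm, at 1.16, exceeded the light bands, at 1.04.

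Among the dark bands, the level fell most between the paler and the deeper classes. Cytogeneticists grade dark bands as 25, 50, 75 and 100 by how strongly they stain. The palest class, 25, had a level of 0.887 ± 0.162 (SD, n = 26 cells) and class 50 had 0.855 ± 0.127, with class 25 higher in only 15 cells. Class 75 had 0.633 ± 0.113 and class 100 had 0.607 ± 0.139, with class 75 higher in 17 cells. Between class 50 and class 75 the log2 ratio was 0.44 ± 0.15, and class 50 was higher in every cell. The light bands in turn exceeded class 25 in 24 cells, with a log2 ratio of 0.33 ± 0.21. In cell 22, class 100 stood at 1.01 while the other 25 cells ran from 0.357 to 0.882.

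**Figure D1:**
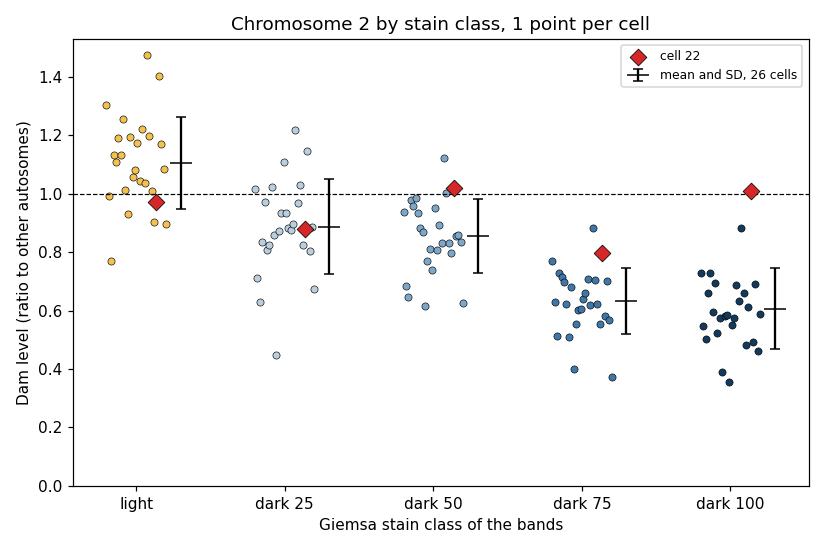
Level of the light bands and of each class of dark bands on chromosome 2 (vertical axis, ratio to the other autosomes; horizontal axis, stain class), with 1 point per cell, cell 22 as a red diamond, and a black bar for the mean and SD over 26 cells. The deepest classes, 75 and 100, lie below 1 in all cells but cell 22, which is at 1.01 in class 100.

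Band by band, more of the chromosome was below the rest of the genome than above it. Of 62 bands, 59 held at least 10 bins. Of these, 7 were above 1 in at least 21 cells, 30 were below and 22 were on neither side. The p arm gave 4 of the 7 high bands (2p23.3, 2p21, 2p13.3 and 2p13.1) and the q arm gave 3 (2q11.2, 2q33.1 and 2q37.1), and all 7 were light bands. All 15 bands of class 75 or 100 were below 1. The light bands were not uniformly high: 9 of 30 were below 1, namely 2p25.3, 2p24.2, 2p23.1, 2p16.2, 2q14.2, 2q23.3, 2q31.3, 2q32.2 and 2q33.3.

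The same was seen in windows of equal length. Of 48 windows of 5 Mb on chromosome 2, 7 (14.6%) were above 1 in at least 21 cells, where 25.7% of all 530 windows of the genome were. A further 25 (52.1%) were below 1, where 42.3% of all windows were. On chromosome 3, 5 of 39 windows were above and 16 were below, and on chromosome 1, 21 of 45 were above and 12 were below.

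**Figure D2:**
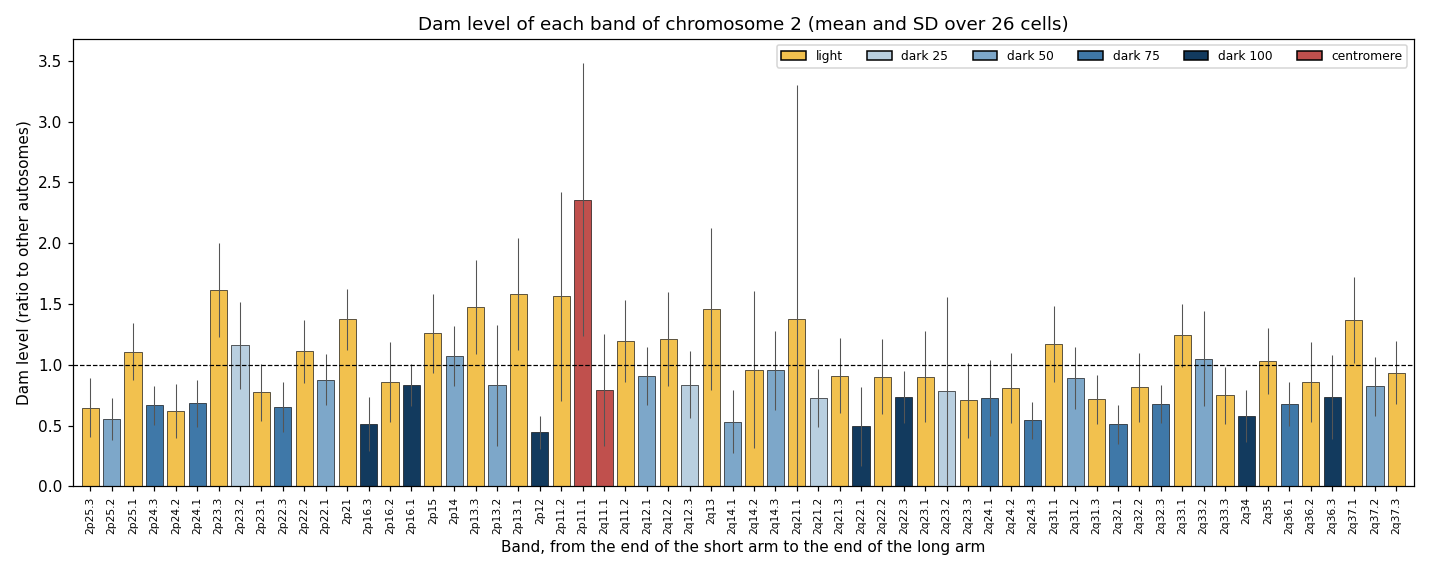
Level of each of the 62 bands of chromosome 2 in order along the chromosome (bars, mean; lines, SD over 26 cells; dashed line, the level of the other autosomes), coloured by Giemsa stain class. Light bands such as 2p23.3 (1.61) rise above 1 and deep dark bands such as 2p12 (0.443) fall below it. The wide lines at 2p11.2 and 2q21.1 go with bins of low expectation, and 2p11.1 rests on 5 bins.

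The highest bands were light bands of the p arm. The band 2p23.3, where the DNA methyltransferase gene DNMT3A lies, led with levels from 0.673 in cell 22 through a median of 1.65 to 2.31 in cell 24. Its mean was 1.61 ± 0.384 (SD, n = 26 cells), and 25 cells were above 1. The band 2p13.1 followed with 1.58 ± 0.462, above 1 in 23 cells, and 2p13.3 with 1.47 ± 0.386, above 1 in 25. In all 3 of these bands the lowest cell was cell 22, and without that cell their means were 1.65, 1.63 and 1.51.

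Among the 6 highest bands, the other 3 rested partly on bins with a small expectation. A bin of low expectation is one for which the recovered expectation was under 0.5 times the median, so that a few reads give a high ratio. The band 2p11.2, which carries the immunoglobulin kappa light chain locus, had 1.56 ± 0.857 (SD, n = 26 cells), but 1.12 ± 0.275 without 13 such bins. The band 2q13 had 1.46 ± 0.665, and 1.32 ± 0.371 without 11 such bins.

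The band 2q21.1 had a mean of 1.38 ± 1.92 (SD, n = 26 cells), yet its median cell was at 0.823 and 19 cells were below 1. Its mean came from cell 23 at 9.02, cell 11 at 5.95 and cell 25 at 3.24, and the next cell was at 1.18. Without 10 bins of low expectation its mean was 0.906 ± 0.333. Its place among the highest bands thus depended on those bins.

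The lowest bands were all dark: of the 6 lowest, 3 were of class 100, 2 of class 75 and 1 of class 50. The band 2p12, of class 100 and the site of the catenin gene CTNNA2, was the lowest of all. Its cells ran from 0.214 in cell 13 through a median of 0.443 to 0.818 in cell 18, with a mean of 0.443 ± 0.136 (SD, n = 26 cells), so every cell was below 1. It was followed by 2q22.1 at 0.495 ± 0.324, 2q32.1 at 0.510 ± 0.161 and 2p16.3 at 0.512 ± 0.219. Last of the 6 were 2q14.1 at 0.533 ± 0.262 and 2q24.3 at 0.542 ± 0.154. Well-known long neuronal genes mark several of these bands: LRP1B lies in 2q22.1, DPP10 in 2q14.1 and the voltage-gated sodium channel cluster in 2q24.3.

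In 2q22.1, 2q32.1, 2p16.3 and 2q14.1 the only cell above 1 was cell 22. It stood at 1.96 in 2q22.1, at 1.03 in 2q32.1, at 1.29 in 2p16.3 and at 1.46 in 2q14.1. Without it the mean of 2q22.1 was 0.436 ± 0.128 (SD, n = 25 cells).

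Neighbouring bands were compared by their mean levels, which does not show how abruptly the level changes at a border. In 49 of 55 neighbouring pairs the light band had the higher mean. Each pair was of a light and a dark band, except that of 2q11.2 with the centromere band 2q11.1, which is counted with them. In 38 pairs at least 21 cells had the same band higher, and in 36 of those it was the light band. The pair with 2q11.1 is among the 36, with 2q11.2 higher in 21 cells. The largest step ran from 2p13.1 at 1.58 into 2p12 at 0.443, with the first band higher in 26 of 26 cells. The rises out of 2p12 into 2p11.2 and from 2p24.1 at 0.682 into 2p23.3 at 1.61 were also seen in all 26 cells, as was the fall from 2p21 at 1.37 into 2p16.3 at 0.512.

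The exceptions were 2 pairs in which the dark band was higher in at least 21 cells. The pale dark band 2p23.2, at 1.16 ± 0.356 (SD, n = 26 cells), exceeded its light neighbour 2p23.1, at 0.772 ± 0.237, in 25 cells. The receptor gene ALK spans this border. The other was 2q33.2, the band of the immune checkpoint gene CTLA4, at 1.05 ± 0.392, which exceeded the light band 2q33.3, at 0.747 ± 0.233, in 22 cells.

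Other bands that hold well-known genes lay on either side of the genome level or near it. The band 2q31.1, where the HOXD cluster of limb and axis patterning genes lies, had a level of 1.17 ± 0.315 (SD, n = 26 cells) and was above 1 in 18 cells. The band 2q31.2, which holds the titin gene TTN, had 0.890 ± 0.259 and was above 1 in 6 cells. The band 2q35, which holds the desmin gene DES, had 1.03 ± 0.268, with 13 cells on each side. None of these 3 was on a side. The band 2q36.1, with the neural crest factor gene PAX3, was below 1 in 25 cells at 0.675 ± 0.183.

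The region of the ancestral joint was marked as much as the genome on average, but unevenly on its sides. The window of 1 Mb on each side of the 2q13/2q14.1 border held 20 bins. Its cells ran from 0.161 in cell 22 through a median of 1.09 to 3.21 in cell 18, with a mean of 1.16 ± 0.598 (SD, n = 26 cells). It was above 1 in 17 cells and therefore on neither side. Against the rest of the q arm the window was higher in 21 of 26 cells, with a log2 ratio of 0.23 ± 0.85, and cell 22 was the lowest at -2.78. Without cell 22 this log2 ratio was 0.36 ± 0.60 (SD, n = 25 cells), and without the 6 cells of lowest coverage it was 0.53 ± 0.36. Among all 2325 windows of 2 Mb on chromosome 2, which overlap one another and have a median level of 0.831, 76.5% were lower than this one.

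The sides of the joint differed in a way that depended on the width taken. Within 1 Mb, the 2q13 side had a level of 1.47 ± 0.835 (SD, n = 26 cells) and was above 1 in 21 cells. The 2q14.1 side had 0.847 ± 0.448 and was below 1 in 19. Within a cell the 2q13 side was higher in 23 of 26, with a log2 ratio of 0.72 ± 0.65. Over 5 Mb on each side the contrast was wider, 1.36 ± 0.569 against 0.551 ± 0.278, and 25 cells had the 2q13 side higher, with cell 22 the exception. At that width 12 of 43 bins on the 2q13 side were of low expectation, and 0 of 50 on the 2q14.1 side. Over 0.5 Mb on each side the order turned: the 2q13 side had 1.04 ± 1.25 and the 2q14.1 side 1.26 ± 0.780, and the 2q13 side was higher in only 7 cells. Of the 5 bins on the 2q13 side of that narrow window, 3 were of low expectation. With counts and expectations summed over bins and cells, the order did not turn. The 2q13 side was then at 1.51, from 178 counts, and the 2q14.1 side at 1.37, from 366. The order at this width was thus not settled. The 2q13 side within 1 Mb held 3 bins of low expectation, and without them its level was 1.74 ± 0.713.

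The last bins of 2q13 before the joint carried almost no information. In chr2:114200001-114300000 and chr2:114300001-114400000 only 1 count was recovered from all 26 cells in each, with expectations of 0.0348 and 0.0127 times the median bin. Where just 1 cell has a value, these are the smallest whole numbers that give its ratio. The next bin on the 2q13 side, chr2:114100001-114200000, had 0.285 times the median expectation and 26 counts. On the other side of the border, chr2:114400001-114500000 had 0.554 times the median expectation, 27 counts and a level of 0.819 ± 1.21 (SD, n = 26 cells). The level of the last bins of 2q13 was thus not measurable at this depth.

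Farther from the joint most bins had ordinary expectations, although 3 more bins of low expectation lay on the 2q13 side between 1 and 2 Mb away. The highest lay on the 2q13 side, in 3 adjacent bins from chr2:113300001-113400000 to chr2:113500001-113600000. They had levels of 2.88 ± 1.83, 3.18 ± 2.09 and 2.79 ± 1.97 (SD, n = 26 cells), and were at a ratio of 1 or more in 23, 22 and 19 cells. Another, lower rise lay on the 2q14.1 side at chr2:114600001-114700000, with 1.98 ± 1.35 and a ratio of 1 or more in 20 cells. From chr2:115000001-115100000 outward, the 14 bins up to 2 Mb from the joint had levels from 0.165 to 0.646, which is the start of the low ground of 2q14.1. In the RefSeq gene order, taken here only for neighbours, RABL2A is the gene beside the joint, with FOXD4L1 and PAX8 on the 2q13 side and SLC35F5, ACTR3 and DPP10 on the 2q14.1 side.

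**Figure D3:**
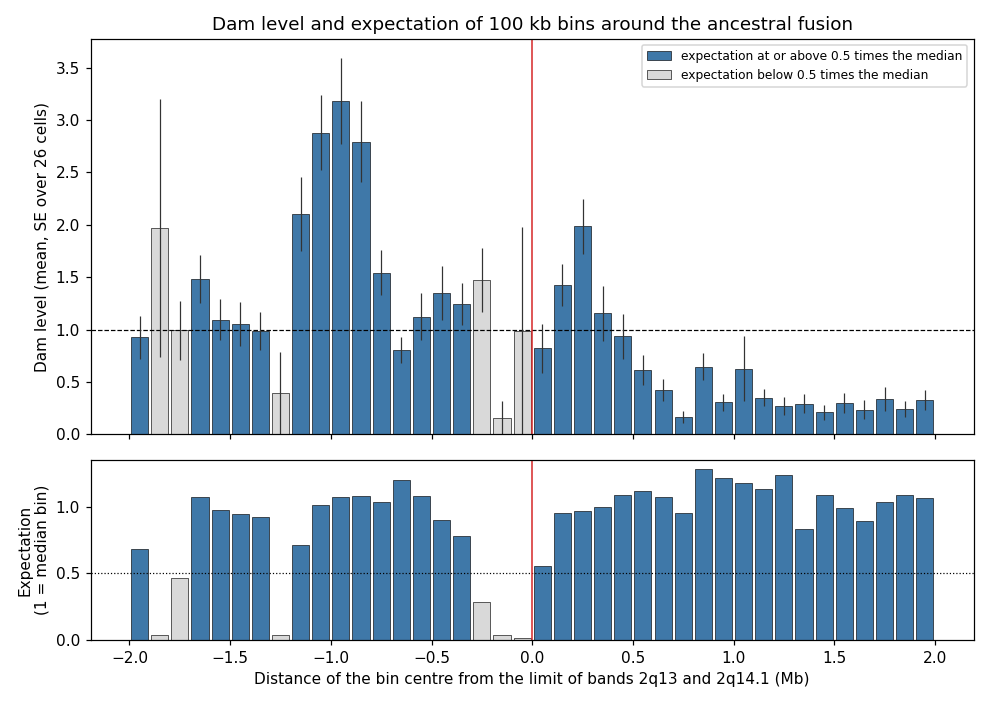
Mean level of each 100 kb bin (upper panel, lines are the SE over 26 cells) and its recovered expectation relative to the median bin (lower panel) by distance from the 2q13/2q14.1 border, with bins below 0.5 times the median expectation in grey. The SE is narrower than the spread between cells, which the text gives as the SD for the bins whose level it states. The last bins of 2q13 before the border have almost no expectation, the 2q13 side peaks at 3.18 about 1 Mb away, and the 2q14.1 side falls to low levels.

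The band of the former centromere was low. Of the 26 bins of 2q21.2, 23 were used, since those over chr2:132600001-132900000 were 0 in every cell. With those bins kept, the level of the band was 0.649 ± 0.216 (SD, n = 26 cells), and the values that follow are without them. In 2q21.2, cells ran from 0.254 in cell 26 through a median of 0.677 to 1.33 in cell 18, with a mean of 0.727 ± 0.242 (SD, n = 26 cells) and 23 cells below 1. Within a cell it was lower than the rest of the q arm in 19 of 26, with a log2 ratio of -0.32 ± 0.41, which is on neither side. It was lower than its light neighbour 2q21.3 in 20 cells and than 2q21.1 in 17. Its variation between cells beyond counting was among the 4 lowest values, but that measure depends on the counts of a band, 974 here.

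The active centromere had few bins to describe. The longest stretch with no value ran over 30 bins, chr2:92300001-95300000, and the next over 11 bins, chr2:90500001-91600000. The 5 Mb on the p side had a level of 1.99 ± 1.28 (SD, n = 26 cells), with 13 of 39 bins of low expectation, and 1.38 ± 0.331 without those. The 5 Mb on the q side had 1.15 ± 0.330, and 1.17 ± 0.311 without 5 such bins. The bands on the q side were 2q11.1 at 0.793 ± 0.460, on neither side, and 2q11.2 at 1.19 ± 0.336, above 1 in 22 cells. Of the 18 bins that were 0 in every cell, 12 lay between chr2:87100001-87200000 and chr2:95300001-95400000.

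The tips of the chromosome differed from each other. The terminal 5 Mb of the p arm had levels from 0.260 in cell 13 through a median of 0.641 to 1.36 in cell 22, with a mean of 0.611 ± 0.220 (SD, n = 26 cells). Every cell but cell 22 was below 1. The terminal 5 Mb of the q arm had levels from 0.325 in cell 22 through a median of 1.05 to 1.56 in cell 18, with a mean of 0.996 ± 0.271 and 14 cells above 1. Relative to the interior of the same cell, the log2 ratio was -0.63 ± 0.42 at the p tip, lower in 25 cells, and 0.09 ± 0.43 at the q tip, higher in 19. Without cell 22 the q tip was at 0.16 ± 0.28 (SD, n = 25 cells). The q tip exceeded the p tip in 25 of 26 cells, and cell 22 was again the exception.

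At the scale of single bins, few places on chromosome 2 were marked in nearly all cells. A bin is called positive where its ratio reaches 1. By that measure, 78 of 2362 bins (3.30%) reached it in 80% of cells or more, where 5.61% of all bins of the genome did. Another 855 (36.2%) reached it in no more than 20% of cells, where 33.5% of all bins did. The corresponding shares were 7.99% and 26.2% on chromosome 1 and 4.57% and 37.2% on chromosome 3. The share of rarely positive bins was thus near that of the genome.

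These bins were spread by stain in the same way as the levels. Of bins in light bands, 5.00% belonged to the widely positive kind and 21.6% to the rarely positive kind. Of bins in dark bands, 1.72% and 49.4% did, and of bins in class 100, 59.2% were rarely positive. The bands with most bins of the first kind were 2p23.3 and 2q33.1 with 7 each and 2p11.2 with 6, but bands differ in length. Among bands with at least 10 bins, the highest shares were 26.7% in 2p13.1 (4 of 15 bins), 17.9% in 2p23.3 and 14.3% in 2p23.2. The share was 11.9% in 2q33.1 and 9.84% in 2p11.2.

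The only bin at a ratio of 1 or more in all 26 cells was chr2:231500001-231600000 in 2q37.1. Its level ran from 1.23 in cell 23 through a median of 4.27 to 6.44 in cell 13, with a mean of 3.84 ± 1.73 (SD, n = 26 cells), from 213 counts. Close to it in mean were chr2:101700001-101800000 in 2q11.2 at 3.84 ± 2.60 and chr2:201900001-202000000 in 2q33.1 at 3.83 ± 2.12. The next were chr2:70300001-70400000 in 2p13.3 at 3.58 ± 2.44 and chr2:26200001-26300000 in 2p23.3 at 3.42 ± 2.02. These 5 were not separated from each other beyond their spread. The remaining 3 of the 8 highest regions were chr2:38900001-39000000 in the dark band 2p22.1 at 3.35 ± 1.94, chr2:219100001-219200000 in 2q35 at 3.34 ± 1.91, and chr2:27400001-27500000 in 2p23.3 at 3.27 ± 1.60.

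The lowest bins of ordinary expectation were close to empty. The lowest was chr2:51500001-51600000 in 2p16.3 at 0.0932 ± 0.295 (SD, n = 26 cells), with 10 counts in all cells together. The 7 that followed lay in 2q14.1, 2q34, 2p12, 2q32.3, 2p22.1, 2q23.3 and 2p25.3, with levels from 0.101 to 0.116 and 6 to 12 counts. Of these 8 bins, 6 lay in dark bands and 2 in light bands. Their order is not resolved at these counts.

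High bins occurred in short blocks, and low bins in both short and long ones. The low bins were also more numerous, 855 against 78, and the part of their number in the block lengths was not tested. Bins positive in at least 80% of cells formed 61 blocks, of which 49 were single bins and the longest had 4 bins. The 2 blocks of 4 bins were chr2:85500001-85900000 in 2p11.2, at 2.83 ± 0.965 (SD, n = 26 cells), and chr2:201700001-202100000 in 2q33.1, at 2.85 ± 1.16. The following 3 were chr2:26100001-26400000 and chr2:27400001-27600000 in 2p23.3 and chr2:28800001-29000000 in 2p23.2, at 2.49 ± 1.07, 2.65 ± 1.11 and 1.98 ± 1.09. That last length of 2 bins was shared with other blocks.

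Bins positive in at most 20% of cells formed 301 blocks, of which 154 were single bins and 16 had 10 bins or more. The longest, of 31 bins, was chr2:76000001-79100000 in 2p12, at 0.299 ± 0.122 (SD, n = 26 cells), and it was below 1 in every cell. Next were 20 bins in 2q34, chr2:211400001-213400000 at 0.363 ± 0.201, where the receptor gene ERBB4 lies, and 19 bins in 2q22.1, chr2:140100001-142000000 at 0.340 ± 0.147. The last 2 of the 5 longest were chr2:81200001-83000000 in 2p12 at 0.339 ± 0.134 and chr2:49400001-51100000 in 2p16.3 at 0.359 ± 0.319. In the block in 2p16.3, cell 22 stood at 1.76 and every other cell was below 1.

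Cells differed in how strongly they followed this profile. Positive bins formed runs of 1.88 ± 0.317 bins (SD, n = 26 cells) on chromosome 2, beside 2.16 ± 0.374 on chromosome 1 and 1.97 ± 0.298 on chromosome 3. On chromosome 2 the mean run went from 1.50 in cell 26 to 2.80 in cell 1, the cells with fewest and most counts there. Cell 1 also had the longest runs on chromosomes 1 and 3, and the shortest were in cells 23 and 26, respectively. The similarity of a cell to the others was likewise highest in cell 1. Over 26 cells of 1 clone, the level of chromosome 2 had a Pearson correlation of 0.42 and a Spearman correlation of 0.37 with the log2 total count of the cell, given as a description because counts per cell enter both. The light to dark ratio had -0.08 and -0.15 with the same total, and -0.34 and -0.29 without cell 22. The part of depth in these values was not tested.

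**Figure D4:**
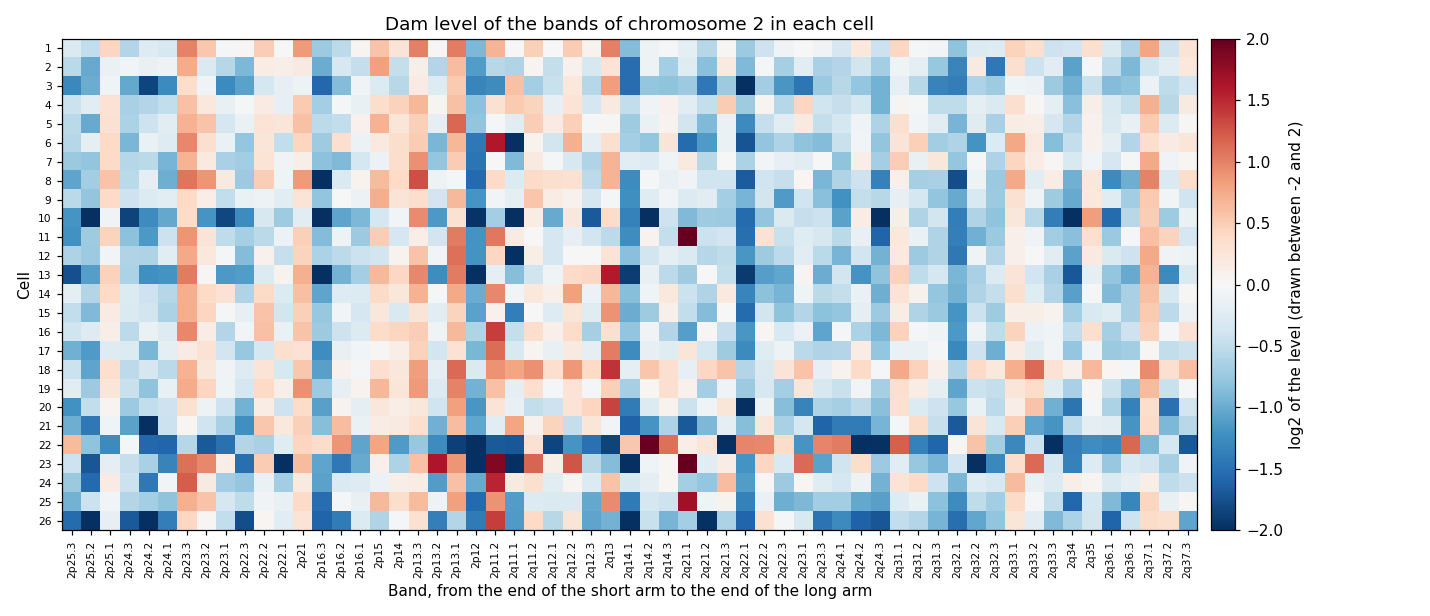
log2 of the level of each band with at least 10 bins (horizontal axis, from the p tip to the q tip) in each of 26 cells (vertical axis), red above and blue below the level of the other autosomes, with colours held between -2 and 2. Vertical stripes such as the blue of 2p12 and the red of 2p23.3 run through nearly all cells, while the row of cell 22 has its own pattern.

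How much a band varied between cells beyond counting was measured by a chi-square over its degrees of freedom, computed within chromosome 2, for which counting alone gives about 1. Its median over bands was 3.37. The 4 highest values were 13.8 in 2q14.2, 10.2 in 2q22.1, 8.62 in 2q36.3 and 6.99 in 2q14.3, and in all 4 the highest cell was cell 22. Without that cell they were 2.26, 2.68, 3.72 and 4.13, the median over bands was 2.66, and the highest band was 2p13.2 at 6.47, where cell 23 stood at 3.06. The 4 lowest values were 1.59 in 2q31.3, 1.66 in 2q21.2, 1.75 in 2q11.1 and 1.75 in 2p22.2. Where cells differ beyond counting, the value also grows with the counts of a band, so bands of unlike counts cannot be ranked by it. The band 2q11.1 had 359 counts and a level of 0.793 ± 0.460 (SD, n = 26 cells). The band 2q14.3 had 4326 counts and a level of 0.953 ± 0.322.

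Along the chromosome, the level of cell 22 did not follow that of the other cells. Its low similarity was not particular to chromosome 2, since it was also the least similar cell on chromosomes 1 and 3. Over 48 windows of 5 Mb the Spearman correlation of its level with the median of the other cells was -0.07. It was the highest cell in 15 windows and the lowest in 22. Its highest window, chr2:120000001-125000000, stood at 3.23 where the other cells had a median of 0.986 and a highest value of 1.52. Its neighbours on each side, chr2:115000001-120000000 at 2.09 and chr2:125000001-130000000 at 2.02, were also above all other cells. These 3 adjacent windows begin just beyond the ancestral joint on the 2q14 side, but such windows were not confined to that place. Cell 22 was also the highest in every window from chr2:135000001-140000000, at 1.83, to chr2:155000001-160000000, at 1.94. It was so too in windows as far off as chr2:45000001-50000000 and chr2:225000001-230000000. Cell 22 had 21105 counts in all, near the lowest total of 20182 in cell 21, and the part of its depth in this pattern was not tested. Cell 21 had a similarity of 0.151 to the other cells on chromosome 2.

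**Figure D5:**
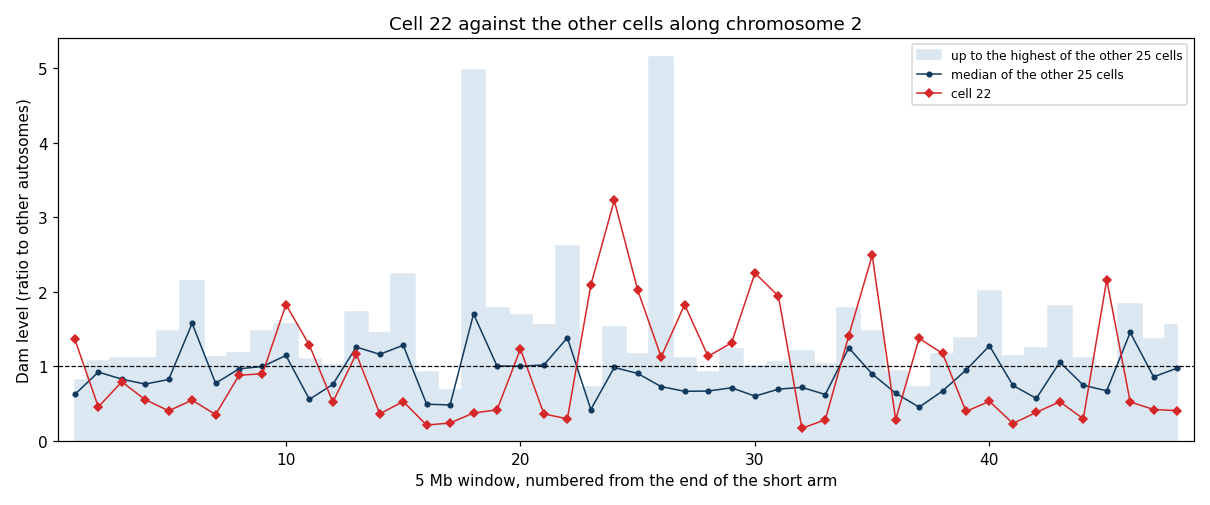
Level of chromosome 2 in 48 windows of 5 Mb, numbered from the p tip, for cell 22 (red), the median of the other 25 cells (dark blue) and the range up to their highest cell (pale blue). Cell 22 exceeds every other cell in 15 windows and is the lowest in 22.

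Cell 18 also stood out, in the other way. It held the highest level of chromosome 2, 1.22, the highest light band level, 1.47, and the highest level of the window around the joint, 3.21. Without the 3 bins of low expectation in that window, cell 24 was the highest there, at 2.34. Cell 18 was the highest of all cells in 16 of 48 windows and the lowest in 0, and 33 of its windows were above 1. Its raised level was thus spread over many windows.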

How the data were processed

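The submitters' processing notes name cutadapt, Bowtie2 2.1.0 and build hg19. The counting rule was not given in the sources used here, nor were the making of the expectation and the mask. The authors deposited 1 linear ratio for each cell in each bin of 100 kb, taken here as observed over expected. Each of the 26 columns was matched to its sample through the sample number. The cells' ratios in a bin are whole multiples of 1 step, and the smallest whole counts that give them were recovered (largest distance from a whole number 2.34e-13, tolerance 0.001), with a relative expectation per bin. In a bin with few counts, both could be larger by a common factor. No 2 cells had identical columns among 325 pairs.

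Band limits and stain classes came from textbook knowledge of the hg19 bands, rounded to whole bins, since no band table was at hand. The stretch without value that opens at chr2:90500001 begins at the limit of 2p11.2 and 2p11.1. Regions named were the arms, stain classes, joint, former centromere band, tips and centromere flanks. To these were added the 6 highest and 6 lowest bands, and the 4 highest and 4 lowest by chi-square over degrees of freedom. So were the 5 longest blocks of each kind. The 8 highest and 8 lowest bins were taken among those with an expectation of at least 0.5 times the median. Bands named for a known gene were chosen for that gene. Members, rules and lists were chosen with earlier results of these data known. The values of cells 18 and 22 by window were chosen after they were seen. Gene names are background, and the gene table used for neighbours and gene numbers is of RefSeq on another build, so none of its coordinates were used. No sequence is printed, as no hg19 genome was used here.

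The alternatives were summed counts over summed expectation, no bins of low expectation, ratios capped at the 99th percentile, bins at 0 in all cells kept, no cell 22, no cells of lowest coverage, cells thinned to 20000 counts, shifted band limits, other widths, other cell and ratio thresholds, and chromosome 2 as the reference. Leaving cell 22 out of the variation of bands was added after the data were seen. The procedures were tested on simulated data. Scripts ran on Python 3.11.15 (scipy 1.17.1, numpy 2.4.6, matplotlib 3.10.9, pandas 2.3.3).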

Additional observations from a re-analysis of the deposited data

How the results depend on the processing

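Of 110 values recomputed for the main results, 99 moved by less than the spread between cells (counts: by 1.5 times or less) and 11 moved by more. No value that was on a side changed direction. All 180 values of named bands and regions moved by less than that spread. The spread is wide in 2p11.2 and 2q21.1, which fell to 1.12 and 0.906 without bins of low expectation. The level of chromosome 2 stayed between 0.882 and 0.917, the log2 ratio of the p arm to the q arm between 0.09 and 0.17, and that of light to dark bands between 0.59 and 0.69. The window at the joint, which was on neither side, ran from 0.926 at 5 Mb on each side, below 1, to 1.32.

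The values that moved were counts that rest on thresholds, and the similarity. The 7 bands above 1 became 12 without the 6 cells of lowest coverage, 13 at 18 of 26 cells, 4 at 24 of 26 cells and 15 relative to chromosome 2. The 30 bands below 1 became 32, 37, 20 and 20 under the same settings. The 78 bins positive in at least 80% of cells became 151 without those 6 cells, 301 with positive at 0.5 and 6 with positive at 2. The 855 bins positive in at most 20% became 447 in cells thinned to 20000 counts, 162 at 0.5 and 1898 at 2. The similarity between cells fell to 0.142 after thinning. The cause was not tested, beyond what fewer cells or another threshold changes by construction. The chi-square over degrees of freedom was recomputed without cell 22 and is given with the bands.

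Depth limits the single bin in the single cell, and the ratio hides it. No paired analysis was possible because all cells belong to 1 group. Cells of 1 clone show the spread between cells and not between cultures.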
